A study of Mus musculus with 10 samples.

Results

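The 37 genes described here encode the laminins and the integrins. The gene family was chosen with earlier results of these data known, and its members were taken by symbol: every gene of the tables named as a laminin alpha, beta or gamma chain or as an integrin alpha or beta subunit. All 37 were present in both tables of the series, out of 17816 genes in the day 7 table and 20007 in the adult table. They comprised 11 laminin genes (5 alpha, 3 beta and 3 gamma chains) and 26 integrin genes (18 alpha and 8 beta subunits). The study asked what the loss of *Rnf20*, the gene of an E3 ubiquitin ligase that places a single ubiquitin on histone H2B, does to Sertoli cells and to spermatogenesis in mice. One table held cultures of Sertoli cells made 7 days after birth, with 2 libraries from Rnf20 Flox/Flox mice, which the labels call wild type, and 2 from Amh-Rnf20-/- mice, in which Cre recombinase under the *Amh* promoter removes floxed *Rnf20* exons in Sertoli cells. These cultures were adherent cells taken after several passages, so they could hold other adherent testis cells. The other table held whole adult testis, with 3 libraries labelled wild type and 3 labelled *Rnf20* conditional knockout. The labels do not give the floxed allele or the Cre line of the adult animals or say which libraries came from separate animals, so the p-values below measure the spread between these libraries only.

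A laminin is a trimer of an alpha, a beta and a gamma chain, and laminins form the sheet on which a basement membrane is built. Around a seminiferous tubule that membrane lies between the Sertoli cells and spermatogonia on the inside and the peritubular myoid cells on the outside. An integrin is a pair of an alpha and a beta subunit that spans the cell membrane and binds laminin, collagen, fibronectin or a counter-receptor on another cell. The integrin of alpha6 and beta1 is a laminin receptor of Sertoli cells and spermatogonia, and laminin alpha3, beta3 and gamma3 chains are known at the contact between Sertoli cells and elongating spermatids.

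Library totals were 17477268 to 17705347 estimated counts at day 7 and 15431912 to 16574144 in adult testis. *Rnf20* itself was at an FPKM, which is fragments counted relative to gene length and library size, of 16.64 and 16.01 in the Rnf20 Flox/Flox cultures and of 10.25 and 12.58 in the Amh-Rnf20-/- cultures (log2 fold change −0.49, standard error 0.12, adjusted p = 0.222). In adult testis it was at 4.89, 3.32 and 4.09 in the wild-type libraries and at 9.16, 5.76 and 9.85 in the others (0.12, standard error 0.27, adjusted p = 0.688), so *Rnf20* was not lower there and the adult group is called the labelled knockout throughout. The first Amh-Rnf20-/- culture stood apart from the second, with a chi-square per degree of freedom of 34.3 between them against 2.65 between the Rnf20 Flox/Flox cultures. The second Amh-Rnf20-/- culture lay nearer to the Rnf20 Flox/Flox cultures, at 20.7 and 22.5, than to the first, which was at 55.6 and 57.3 from them. The first labelled knockout testis likewise stood apart, at 88.1 and 118 from the other labelled knockout libraries, which were 21.4 apart. Of the marker lists, the 17 Sertoli cell genes summed to an FPKM of 1642 to 1820 in the Rnf20 Flox/Flox cultures and of 981 and 1361 in the Amh-Rnf20-/- cultures. The 7 peritubular myoid cell genes summed to 1917 to 2039 and to 3577 to 3623, and the 6 stromal fibroblast genes to 2152 to 2236 and to 3306 to 3920. In adult testis, the 12 spermatid genes summed to 124310 to 192900 in the wild-type libraries and to 3.97, 107 and 66.2 in the labelled knockout libraries. Every gene of these lists that a table held was above 0 in at least 1 of its libraries. In bulk RNA, fewer cells of a type and less RNA per cell cannot be told apart.

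In the day 7 cultures, the best expressed members were *Itgb1*, *Itga5*, *Lamc1* and *Lamb1*, and no laminin or integrin gene passed the test between genotypes. The 4 largest log2 fold changes in size were 2.88 for *Itga8*, 2.06 for *Itga1* and 1.71 for *Lama5*, which were higher in both Amh-Rnf20-/- cultures, and −1.60 for *Itgad*, which was lower in both. *Itga8*, *Itga1* and *Itgad* are integrin alpha subunits at low levels, and *Lama5* is a laminin alpha chain. *Itga8* reached the level of 0.5 FPKM that the test required in the Amh-Rnf20-/- cultures only, and *Itgad* in the Rnf20 Flox/Flox cultures only, so each could enter the test only with a difference. The test was edgeR's quasi-likelihood test with Benjamini-Hochberg adjustment over the 12880 genes that reached 0.5 FPKM in 2 or more libraries, and 29 members were among them. At an adjusted p-value under 0.05, 0 of the 29 members were called, where 0% of all genes tested were called. The study itself did report genes that differed in the day 7 cells. Its threshold was a false discovery rate under 0.001 and a log2 fold change beyond 1 in size. At an unadjusted p-value under 0.05, 10 members were higher and 2 were lower, against 8.52% of all genes tested that were higher and 6.99% that were lower. The smallest adjusted p-value of a member was 0.119. DESeq2, which estimates the spread between libraries differently, called 4 members, *Itga1*, *Itga6*, *Itga8* and *Lama2*, beside 4.50% of all genes tested, and limma called 0 with either pseudocount.

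On counts scaled by TMM (trimmed mean of M-values, which sets libraries level over most genes), the groups did not overlap for 20 of the 29 members, with 16 higher and 4 lower in both Amh-Rnf20-/- cultures. Over all genes tested, 24.8% were higher and 26.1% were lower in this way. *Itga8*, among the 16, and *Itgad* and *Itgb4*, among the 4, reached the required level in a single genotype only. They had to differ, so these counts and the median are a description. The median log2 fold change of the 29 members was 0.32, and that of all genes tested was −0.00. The members' median was 0.07 without the first Amh-Rnf20-/- culture and 0.39 without the second. Of the 11 laminin genes, all of which were tested, 7 were higher without overlap and 0 were lower. Of the 18 integrin genes tested, 9 were higher and 4 lower, with *Itga8* among the 9 and *Itgad* and *Itgb4* among the 4.

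**Figure D1:**
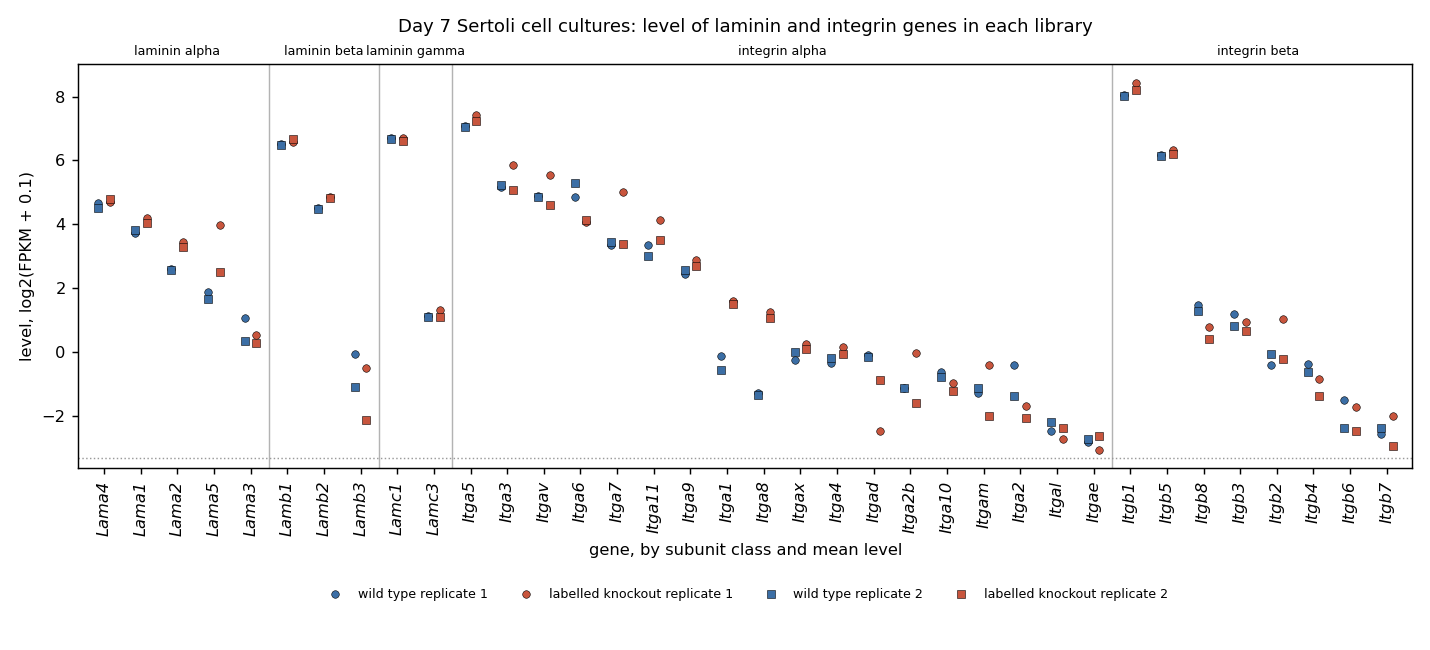
Level of laminin and integrin genes in each day 7 culture, as log2(FPKM + 0.1), grouped by subunit class and ordered by mean level within it; blue points are Rnf20 Flox/Flox (labelled wild type) and red points Amh-Rnf20-/- cultures, and the dotted line marks an FPKM of 0. *Itgb1* lies highest, at 260.84 to 346.73, and the red points of *Itga8* and *Itga1* lie above both blue points.

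Among the laminin alpha chains, *Lama4*, which is found in basement membranes of vessels and muscle, was the highest at day 7, with an FPKM of 25.25 and 22.69 in the Rnf20 Flox/Flox cultures and of 26.11 and 27.67 in the Amh-Rnf20-/- cultures. *Lama1*, the alpha chain of embryonic and early tubule laminin, was at 13.21 and 14.13 against 18.12 and 16.53 (log2 fold change 0.38, standard error 0.09, adjusted p = 0.213). The groups did not overlap for either gene, and the difference in *Lama4* was smaller, at 0.21 (standard error 0.09). *Lama2*, the alpha chain of muscle laminin, was at 5.97 and 5.88 in the Rnf20 Flox/Flox cultures and at 10.88 and 9.73 in the Amh-Rnf20-/- cultures (log2 fold change 0.84, standard error 0.09, adjusted p = 0.119). *Lama5*, a chain of mature epithelial basement membranes, was at 3.58 and 3.06 against 15.58 and 5.59 (log2 fold change 1.71, standard error 0.51, adjusted p = 0.262). Both Amh-Rnf20-/- cultures lay above both controls, and most of the difference was in the first of them: the log2 fold change was 0.79 when the first was left out and 2.27 when the second was left out. *Lama3*, the alpha chain of hemidesmosome laminin, had the lowest level of the alpha chains, between 1.12 and 2.0 in the 4 cultures.

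*Lamb1*, the common beta chain of early basement membranes, was at 92.21 and 90.28 in the Rnf20 Flox/Flox cultures and at 95.79 and 101.19 in the Amh-Rnf20-/- cultures. *Lamb2*, the beta chain of muscle and kidney laminins, was at 22.89 and 22.32 against 28.6 and 28.31 (log2 fold change 0.37, standard error 0.07, adjusted p = 0.172). The *Lamb2* values were tight within each genotype and did not overlap. *Lamc1*, the gamma chain of most laminins, was at 103.85 and 102.78 against 104.34 and 97.71, and overlapped on TMM-scaled counts (log2 fold change 0.01, standard error 0.08). *Lamc3* and *Lamb3* were low, with ranges of 2.04 to 2.41 and of 0.13 to 0.86, and the log2 fold change of *Lamb3* was −0.68 (standard error 0.80).

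Of the integrin beta subunits, *Itgb1*, the shared partner of most laminin and collagen receptors, was at 265.45 and 260.84 in the Rnf20 Flox/Flox cultures and at 346.73 and 298.66 in the Amh-Rnf20-/- cultures (log2 fold change 0.33, standard error 0.10, adjusted p = 0.270). *Itgb5*, which pairs with the alphav subunit to bind vitronectin, was at 71.71 and 70.29 against 79.54 and 73.83. Both were higher without overlap. The level of *Itgb8*, whose product with the alphav subunit releases active TGF-beta, was the reverse, at 2.7 and 2.35 against 1.62 and 1.22 (log2 fold change −0.79, standard error 0.23, adjusted p = 0.262). *Itgb8* lies below the level at which the rule names a gene, as do *Itga8*, *Itga1* and *Itgad*, and these 4 were picked with their values known. The other 5 beta subunits stayed at an FPKM of 2.19 or less in every culture.

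*Itga5*, the fibronectin receptor subunit, led the alpha subunits with 136.38 and 131.12 in the Rnf20 Flox/Flox cultures and 170.01 and 149.66 in the Amh-Rnf20-/- cultures (log2 fold change 0.30, standard error 0.10, adjusted p = 0.287). *Itga3*, a laminin receptor subunit, was at 36.2 and 37.41 against 58.32 and 33.89, and *Itgav*, which binds vitronectin, was at 29.25 and 28.92 against 46.33 and 24.28. For both genes the first Amh-Rnf20-/- culture was the highest of the 4 and the second the lowest, so the groups overlapped. *Itga6*, the alpha subunit of the laminin receptor of Sertoli cells and spermatogonia, was at 29.02 and 38.79 against 16.84 and 17.48 (log2 fold change −0.94, standard error 0.16, adjusted p = 0.147). The summed level of the 17 Sertoli cell genes was lower in the same cultures, and so was that of the 14 spermatogonium genes (219 to 227 against 155 to 157), and their part in the difference of *Itga6* was not tested. *Itga7*, a laminin receptor subunit of muscle, was at 10.02 and 10.86 against 32.27 and 10.24, with 1 culture high. Without that culture its log2 fold change was 0.01, and with it 1.07 (standard error 0.55).

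*Itga11*, a collagen receptor subunit of fibroblasts, was at 10.09 and 8.0 in the Rnf20 Flox/Flox cultures and at 17.38 and 11.38 in the Amh-Rnf20-/- cultures, and *Itga9*, a receptor subunit for tenascin and related ligands, at 5.28 and 5.83 against 7.28 and 6.35. Neither gene overlapped between the genotypes, with log2 fold changes of 0.71 (standard error 0.25, adjusted p = 0.304) and 0.33 (standard error 0.12, adjusted p = 0.315). Without the first Amh-Rnf20-/- culture these were 0.37 and 0.21, and without the second 0.99 and 0.43. The widest relative gaps were in *Itga8*, the nephronectin receptor subunit of smooth muscle and mesenchyme, at 0.31 and 0.29 against 2.26 and 2.0 (log2 fold change 2.88, standard error 0.20, adjusted p = 0.119). *Itga1*, a collagen and laminin receptor subunit of smooth muscle and stroma, was at 0.81 and 0.58 against 2.92 and 2.72 (2.06, standard error 0.22, adjusted p = 0.119). These 2 genes were highest in the same cultures in which the peritubular myoid and stromal fibroblast lists were highest, and the part of those cells was not tested. Both had close values within each genotype, and both kept their direction when the first Amh-Rnf20-/- culture was left out, at 2.78 for *Itga8* and 2.01 for *Itga1*. *Itgad*, an integrin of macrophages, was at 0.84 and 0.79 against 0.08 and 0.44 (−1.60, standard error 0.71, adjusted p = 0.372), and its log2 fold change was −0.85 when the first Amh-Rnf20-/- culture was left out and −3.29 when the second was. The 8 members that were not tested at day 7, *Itga10*, *Itga2*, *Itga2b*, *Itgae*, *Itgal*, *Itgam*, *Itgb6* and *Itgb7*, had mean FPKM values of 0.0425 to 0.455 over the 4 cultures.

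The count of calls at day 7 turned on the Amh-Rnf20-/- cultures. Leaving out the first of them gave 14 members past the threshold, 10 higher and 4 lower, where 9.74% of all genes tested were higher and 11.7% lower. Leaving out the second gave 18, 16 higher and 2 lower, where 21.0% of all genes were higher and 18.8% lower, while leaving out either Rnf20 Flox/Flox culture gave 0. With 1 Amh-Rnf20-/- culture left, its spread is taken from the control pair. With each library scaled on the Sertoli cell list the median of all genes moved to 0.67 and 3 members passed, all higher, beside 0.831% of all genes that were higher. When scaled on the peritubular myoid cell list, that median moved to −1.23 and 23 members passed, 2 higher and 21 lower, where 0.474% of all genes were higher and 89.3% lower; *Itga8* and *Itga1* were the 2 that were higher.

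The other genes of the pathway were given by 4 lists. None of the 46 tested genes of these lists passed at day 7. Their counts without overlap stand beside 24.8% higher and 26.1% lower over all genes tested, and a count near those shares is no result about a list. Of the 13 other basement membrane genes, 7 were higher and 4 lower without overlap, and *Col4a4*, a type IV collagen chain, differed most, with 4.01 and 3.84 in the Rnf20 Flox/Flox cultures against 9.0 and 11.54 (log2 fold change 1.41, standard error 0.14, adjusted p = 0.119). Of the 8 other laminin receptors and integrin partners, 0 were higher and 3 lower without overlap, with the syndecan *Sdc4* differing most (−0.45, standard error 0.09, adjusted p = 0.173). Of 17 tested genes for integrin activation and adhesion adaptors, 8 were higher and 2 lower, led by *Lims2*, a partner of integrin-linked kinase (0.86, standard error 0.15, adjusted p = 0.159). Of 8 tested genes of other integrin ligands, 6 were higher and 1 lower, and the largest difference, in the alpha4 integrin ligand *Vcam1*, rested on the first Amh-Rnf20-/- culture (5.63 and 5.35 against 41.75 and 8.46, log2 fold change 2.24, standard error 0.78, adjusted p = 0.303).

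In adult testis, 25 laminin and integrin genes were higher in the labelled knockout, among them the main laminin chains *Lamb1*, *Lamb2*, *Lamc1* and *Lamc3* and all 6 tested integrin beta subunits. Another 6 were lower: the laminin chain *Lamb3* and the integrin alpha subunits *Itgad*, *Itgae*, *Itga2*, *Itga1* and *Itga7*. These calls are at an adjusted p-value under 0.05 by edgeR's quasi-likelihood test over the 15919 genes that reached 0.5 FPKM in 3 or more libraries, which left 33 members. Among all genes tested, 40.9% were higher and 40.6% were lower at this threshold. The median log2 fold change of the 33 members was 2.54 and that of all genes tested was 0.01. Of the 33, 14 reached the required level in the labelled knockout libraries only and 3 in the wild-type libraries only, and a gene that enters the test through 1 group has to differ. They gave 13 of the 25 calls higher and 3 of the 6 lower, so these counts and the median are a description. The 16 members that reached the level in both groups gave 12 calls higher and 3 lower. *Itga3*, *Itgam*, *Itgb2*, *Itgb7* and *Itgb8* were among those that passed through the labelled knockout only, and *Itga2*, *Itgad* and *Lamb3* were those that passed through the wild type only. The 9 laminin genes called higher included 4 of the 5 alpha chains and 2 of the 3 beta chains. Of the 16 tested integrin alpha subunits, 10 were higher and 5 lower. Of the marker lists, the 7 Leydig cell genes summed to an FPKM of 4019 to 5618 in the wild-type libraries and of 63494 to 88130 in the labelled knockout libraries, the 8 endothelial genes to 7.85 to 9.16 and 47.3 to 80.9, and the 6 stromal fibroblast genes to 40.5 to 53.4 and 1303 to 3390. The part of these cells in the members' rise was not tested. The 2 members that did not pass were *Lama5* (0.82, standard error 0.40, adjusted p = 0.102) and *Itgax* (0.96, standard error 0.66, adjusted p = 0.215). Both were called higher with total-count scaling (adjusted p = 0.00586 and 0.0377), as were 8615 of all genes tested. Without the first labelled knockout library their log2 fold changes were 0.44 and 0.32, and *Lama5* passed without the third (adjusted p = 0.0498).

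FPKM are shares of each library's total, and fold changes below are on TMM-scaled counts, which lie lower. With total-count scaling the median over all genes tested was 0.87, with 8615 genes higher and 4775 lower against 6503 and 6466 with TMM; with median-ratio scaling it was −0.19, and with scaling on the peritubular myoid cell list −1.0, with 3409 higher and 7989 lower.

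**Figure D2:**
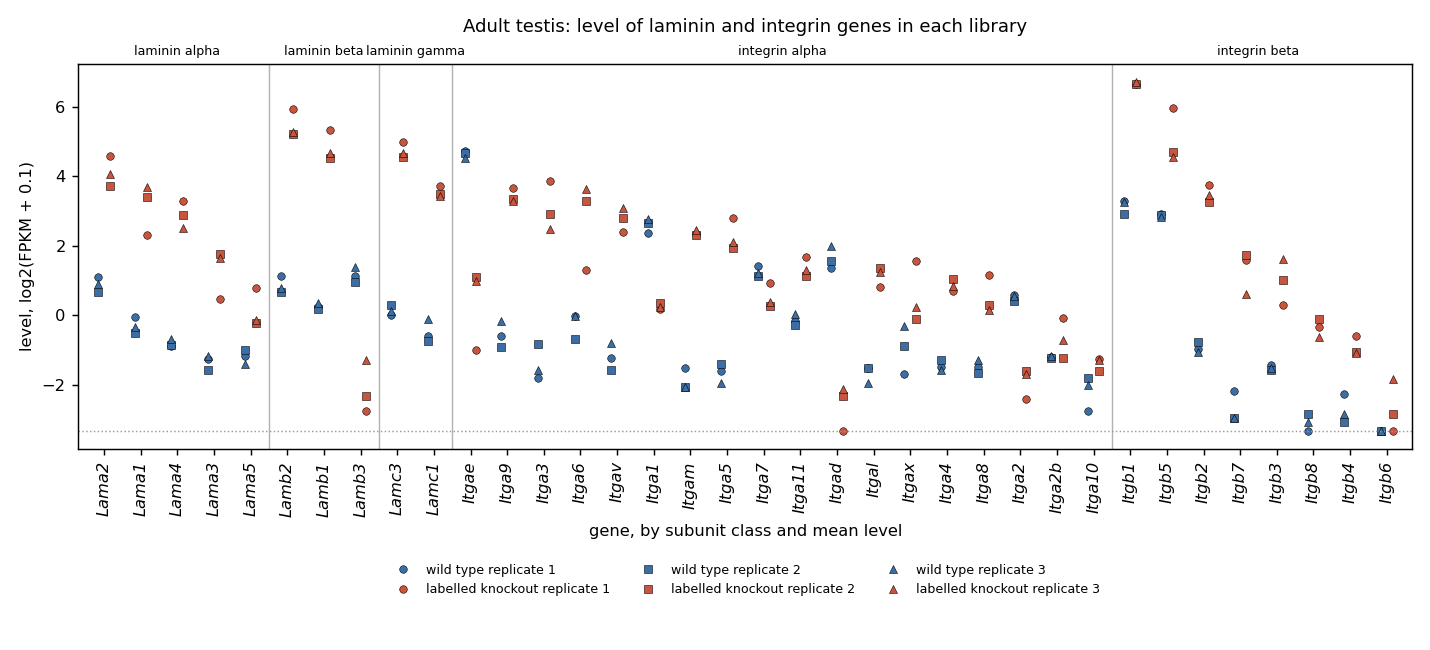
Level of laminin and integrin genes in each adult testis library, as log2(FPKM + 0.1), grouped by subunit class and ordered by mean level within it; blue points are libraries labelled wild type and red points libraries labelled knockout, and the dotted line marks an FPKM of 0. Red points lie above blue for most genes and below for *Lamb3*, *Itgae*, *Itga1*, *Itga7*, *Itgad* and *Itga2*, and the first labelled knockout library (red circle) is the lowest red point of *Lama1* and *Itga6*.

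The highest member in the labelled knockout was *Itgb1* (Entrez 16412, chromosome 8, 128685654 to 128733579 on GRCm38.p6). Its FPKM was 9.68, 7.43 and 9.37 in the wild-type libraries and 100.24, 99.37 and 104.52 in the labelled knockout libraries (log2 fold change 2.67, standard error 0.15, adjusted p = 3.71e-05). The labelled knockout values were close to each other and far above the wild-type values. *Itgb5* was at 7.48, 7.28 and 7.01 against 61.56, 25.63 and 23.22 (1.46, standard error 0.42, adjusted p = 0.0166). The first labelled knockout library was well above the other two, and all 3 were above the wild-type libraries. Without the first, its log2 fold change was 0.97. *Itgb5* did not pass when any 1 wild-type library was left out (adjusted p = 0.0531 to 0.0560). *Itgb2*, the beta subunit of leukocyte integrins, rose from 0.41, 0.49 and 0.38 to 13.22, 9.39 and 10.9 (3.85, standard error 0.25, adjusted p = 5.20e-05).

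The beta2 partner *Itgam*, which with *Itgb2* forms the complement receptor of macrophages, rose from 0.25, 0.14 and 0.14 to 4.96, 4.86 and 5.39 (4.0, standard error 0.27, adjusted p = 5.43e-05). *Itgb7*, whose product pairs with the alpha4 and alphaE subunits on lymphocytes, was at 0.12, 0.03 and 0.03 against 2.89, 3.2 and 1.42 (4.52, standard error 0.68, adjusted p = 0.00109). Its wild-type libraries held 7 counts in all and the labelled knockout libraries 289, a ratio of 42.7 per total count (95% exact interval 20.5 to 107, counting error only), and its log2 fold change was 5.65 without the first wild-type library. For *Itgb8* the wild-type libraries held 3 counts in all and the others 93, with FPKM values of 0.0, 0.04 and 0.02 against 0.69, 0.83 and 0.55 and a ratio of 32.1 (10.6 to 158). It was called higher (4.02, standard error 0.67, adjusted p = 0.00166), with a log2 fold change of 4.95 without the second wild-type library. *Itgal*, the alpha subunit of the lymphocyte integrin LFA-1, was also called higher (2.44, standard error 0.29). *Itgad*, an integrin of macrophages, and *Itgae*, known from lymphocytes in epithelia, were instead called lower (−6.16 and −4.98), and *Itgax* did not pass. Beside the leukocyte integrins *Itgb2*, *Itgam*, *Itgb7* and *Itgal*, the 9 macrophage genes summed to an FPKM of 57.3 to 66.7 in the wild-type libraries and 1168 to 1588 in the labelled knockout libraries. The 6 lymphocyte genes summed to 3.77 to 12.4 and 17.5 to 28.4. That lymphocyte list was mixed: *Cd3d* fell from 10.64, 2.53 and 4.62 to 1.29, 3.1 and 1.53 (−1.94, standard error 0.61), and *Cd2* overlapped. The other 4 were called higher, as were 40.9% of all genes tested. The part of macrophages and lymphocytes was not tested.

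Among the laminin chains, *Lamb2* was the highest in the labelled knockout, at 60.54, 36.89 and 38.58 against 2.08, 1.51 and 1.63 in the wild-type libraries (3.86, standard error 0.30, adjusted p = 7.81e-05). *Lamb1* rose alongside it, from 1.09, 1.04 and 1.19 to 40.22, 23.05 and 25.11 (3.90, standard error 0.29, adjusted p = 7.49e-05). Both beta chains were higher in the first labelled knockout library than in the other two. *Lamc3*, a gamma chain known in testis, rose from 0.9, 1.13 and 1.0 to 31.2, 23.21 and 25.42 (3.86, standard error 0.22, adjusted p = 3.60e-05), and *Lamc1* from 0.57, 0.5 and 0.83 to 13.02, 11.09 and 10.67 (3.36, standard error 0.23, adjusted p = 6.06e-05). *Lamc3* was thus higher than *Lamc1* in every adult library and lower than it in every day 7 culture.

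*Lama2*, the leading alpha chain of the adult libraries, rose from 2.06, 1.51 and 1.76 to 23.62, 13.12 and 16.45 (2.48, standard error 0.28, adjusted p = 3.06e-04). *Lama1* rose from 0.86, 0.6 and 0.7 to 4.82, 10.39 and 12.74 (2.81, standard error 0.35, adjusted p = 5.02e-04). The first labelled knockout library was the highest for *Lama2* and the lowest for *Lama1*. It was also the lowest for *Itga6*, at 0.89, 0.53 and 0.89 against 2.36, 9.68 and 12.3 (2.54, standard error 0.59, adjusted p = 0.00719). *Itga6* was picked with its values known. In the same library the Sertoli cell list summed to 3111, against 6538 and 7711 in the other labelled knockout libraries and 1219 to 1650 in the wild-type libraries, and the stromal fibroblast list to 3390, against 1327 and 1303, and 40.5 to 53.4. Most of the 3111 was *Clu* (1856.83) and *Inha* (765.73). By FPKM, *Sox9*, *Dhh*, *Fshr*, *Inhbb*, *Aard*, *Cst9*, *Cst12*, *Tsx*, *Rhox5* and *Rhox8* were below all wild-type libraries in the first labelled knockout library. *Wt1*, *Amh*, *Amhr2*, *Clu*, *Kitl*, *Inha* and *Gata4* were above all wild-type libraries in that library. With that library left out, log2 fold changes were 3.23 for *Lama1*, 3.09 for *Itga6* and 2.29 for *Lama2*, and the same 25 members were called higher and the same 6 lower, in a fit that called 7207 of all genes higher and 6550 lower.

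Of the other integrin alpha subunits, *Itga9* rose from 0.56, 0.43 and 0.8 to 12.54, 10.02 and 9.6 (3.48, standard error 0.23, adjusted p = 5.08e-05), and *Itga3* from 0.19, 0.47 and 0.24 to 14.37, 7.42 and 5.46 (4.08, standard error 0.58, adjusted p = 8.20e-04). All 3 labelled knockout values of both genes lay above all wild-type values. The other 8 members called higher, *Itga11*, *Itga4*, *Itga5*, *Itga8*, *Itgav*, *Itgb3*, *Lama3* and *Lama4*, had log2 fold changes of 0.80 to 3.60. The lowest of these, *Itga11* (0.80, standard error 0.25, adjusted p = 0.0232), was not called with median-ratio scaling, with DESeq2 or without the first or the second wild-type library. The 4 members that were not tested, *Itga10*, *Itga2b*, *Itgb4* and *Itgb6*, had mean FPKM values of 0.0367 to 0.452, and *Itgb6* held 0 counts in the wild-type libraries and 15 in the labelled knockout libraries.

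*Itgae* (Entrez 16407, chromosome 11, 73090505 to 73147449), which encodes the alphaE subunit known from lymphocytes in epithelia, was the best expressed integrin gene of the wild-type libraries, at 26.15, 25.3 and 22.97, and was at 0.4, 2.05 and 1.87 in the labelled knockout libraries (−4.98, standard error 0.59, adjusted p = 3.76e-04). Its known partner *Itgb7* was at 0.12 or less in the same wild-type libraries. *Lamb3* (Entrez 16780, chromosome 1, 193294353 to 193343878) was at 2.09, 1.83 and 2.5 against 0.05, 0.1 and 0.31 (−4.66, standard error 0.59, adjusted p = 4.95e-04). *Itgad* was at 2.49, 2.84 and 3.85 against 0.0, 0.1 and 0.13, with 545 counts in the wild-type libraries and 13 in the others (−6.16, standard error 0.70, adjusted p = 3.31e-04). The groups were far apart for all 3 genes, and the first labelled knockout library was the lowest of all 6 libraries for each. Without it, their log2 fold changes were −4.41, −4.14 and −5.48, and that of *Lamb3* was −5.51 without the third.

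The other 3 were integrins that bind collagen or laminin, and were likewise picked with their values known. *Itga1* (chromosome 13, 114958079 to 115101964) was at 5.07, 6.16 and 6.76 in the wild-type libraries and at 1.04, 1.17 and 1.09 in the labelled knockout libraries (−3.30, standard error 0.17, adjusted p = 3.18e-05). *Itga2* (chromosome 13, 114833081 to 114932100), also a collagen receptor subunit, was at 1.41, 1.24 and 1.38 against 0.09, 0.23 and 0.21 (−3.77, standard error 0.35, adjusted p = 1.48e-04). These neighbouring genes lie 25978 bases apart on the minus strand, and both groups were tight in *Itga1*. *Itga7* was at 2.6, 2.09 and 2.23 against 1.8, 1.1 and 1.21 (−1.67, standard error 0.28, adjusted p = 0.00168), the smallest fall of the 6, and it did not pass when libraries were scaled on the Sertoli cell list (−1.42, adjusted p = 0.151). All 12 spermatid genes and 7 of the 11 spermatocyte genes were called lower in the same libraries, where 40.6% of all genes tested were. All 11 spermatocyte genes were lower without overlap, as were 6861 of all 15919 genes tested. The 11 summed to an FPKM of 847 to 894 against 8.19, 155 and 269. Of the 11 tested spermatogonium genes, 3 were called higher and 4 lower, and that list of 14 genes summed to 273 to 305 against 61.8, 324 and 461. The part of germ cells in these falls was not tested.

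Other genes overlap several of these loci, and since the handling of strand is not given in the sources used here, reads from overlapping genes cannot be told apart by strand. *Haspin*, a kinase gene of germ cells, lies inside *Itgae* on the opposite strand (73135484 to 73138294). Its FPKM was 301.65, 313.59 and 344.28 in the wild-type testes and 0.39, 11.12 and 12.56 in the labelled knockout testes (−6.21, standard error 1.23, adjusted p = 0.00360), so both genes were high in the same libraries. The annotated exons of *Itgae* and *Haspin* share 0 bases. *Cerkl* shares 1124 exon bases with *Itga4*, a member called higher, and was at an FPKM of 1.0 or less in every adult library (−0.03, standard error 0.47, adjusted p = 0.960). *Cox6a2* shares 70 exon bases with *Itgad* and had the opposite direction (4.53, standard error 1.20, adjusted p = 0.0125). *Mettl7b* shares 9 exon bases with *Itga7* and fell (−2.89, standard error 0.42, adjusted p = 9.17e-04). *Pelo*, inside *Itga1* and with 0 shared exon bases, was at 9.81, 8.08 and 8.48 against 9.91, 9.02 and 8.99 (−0.77, standard error 0.16, adjusted p = 0.00422).

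The upstream sequences of *Itga1* and *Itga2*, the neighbours that fell, are set beside those of *Itgb1* and *Itgb5*, the 2 integrins with the highest levels in the labelled knockout. They are the 200 bases before the annotated start, read 5′ to 3′ on the strand of the gene, from RefSeq promoters on GRCm38.p6, at chr13:115101965-115102164 (minus strand), chr13:114932101-114932300 (minus strand), chr8:128685454-128685653 (plus strand) and chr16:33829465-33829664 (plus strand). Capitals mark GGGCGG on either strand.
Itga1: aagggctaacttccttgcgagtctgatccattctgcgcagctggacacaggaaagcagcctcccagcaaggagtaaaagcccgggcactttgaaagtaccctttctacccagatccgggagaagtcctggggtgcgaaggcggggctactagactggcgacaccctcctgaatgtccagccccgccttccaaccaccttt
Itga2: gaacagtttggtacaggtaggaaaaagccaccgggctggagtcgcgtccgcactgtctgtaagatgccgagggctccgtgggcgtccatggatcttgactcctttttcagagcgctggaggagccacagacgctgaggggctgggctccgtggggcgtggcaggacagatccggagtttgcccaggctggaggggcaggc
Itgb1: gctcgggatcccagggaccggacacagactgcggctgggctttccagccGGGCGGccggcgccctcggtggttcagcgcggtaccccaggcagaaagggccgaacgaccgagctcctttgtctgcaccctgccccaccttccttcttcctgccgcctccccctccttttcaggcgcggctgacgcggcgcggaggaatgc
Itgb5: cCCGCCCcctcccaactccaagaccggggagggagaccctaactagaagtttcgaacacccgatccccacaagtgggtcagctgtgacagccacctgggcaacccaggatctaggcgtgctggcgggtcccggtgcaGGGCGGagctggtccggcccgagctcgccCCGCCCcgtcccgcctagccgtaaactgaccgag
GGGCGG or its reverse complement occurred 0 times in the stretches of *Itga1* and *Itga2*, 1 time in that of *Itgb1* and 3 times in that of *Itgb5*. In the whole windows of 300 bases, from 250 before to 50 after the start, *Itga2* also held 1. Such windows were matched for 23 of the 37 members, with 26 windows in all, and 12 of the 26 (46.2%) held GGGCGG, against 35.7% of 32851 windows of all genes. CCAAT, searched on both strands, occurred in 4 (15.4%) against 37.4%, and TATAAA and TGACGTCA in 0, against 13.6% and 1.79%. The window of *Itgb1* held 27 CG dinucleotides, that of *Itgb5* 20, that of *Itga2* 13 and that of *Itga1* 12, where the median window held 7. These matches describe the letters only.

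**Figure D3:**
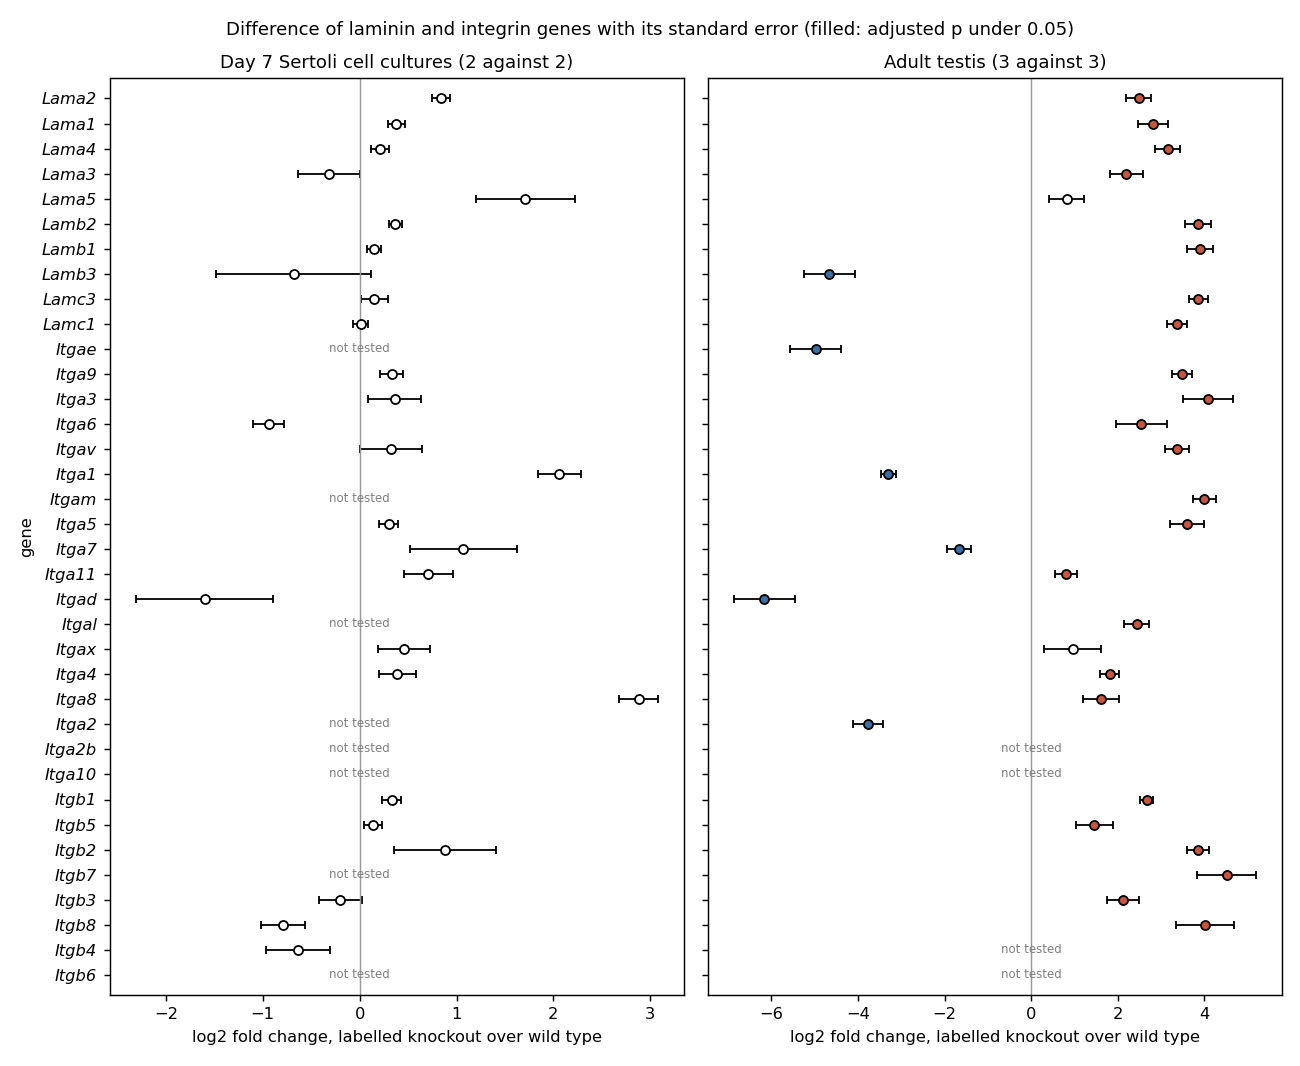
Log2 fold change of tested genes with its standard error, labelled knockout over wild type, in the day 7 cultures (left, 2 libraries against 2) and in adult testis (right, 3 against 3); the scales of the panels differ, filled points passed an adjusted p-value of 0.05 and genes below the filter are marked as not tested. No point is filled on the left, and on the right 6 are filled below 0 and most others above 0, from −6.16 for *Itgad* to 4.52 for *Itgb7*.

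Levels within a subunit class showed which chains made up each group. A share is the FPKM of a gene over the summed FPKM of its class in the same library, which does not depend on the scaling of libraries. In the adult beta chains, *Lamb3* made up 39.7%, 41.8% and 47.0% in the wild-type libraries and 0.0496%, 0.167% and 0.484% in the labelled knockout libraries. *Lamb2* made up 34.9% ± 4.47 (SD, n = 3) against 60.6% ± 0.745 and *Lamb1* 22.3% ± 1.51 against 39.2% ± 0.755. All 3 beta chains had shares that did not overlap, with p = 0.1 each in an exact two-sided permutation test, the smallest that 3 against 3 allows. The shares of a class add up to the whole, so a fall of *Lamb3* alone raises the other shares, and these are not separate results. The wild-type libraries thus held the 3 beta chains in more even amounts than the labelled knockout libraries, where *Lamb3* was nearly lacking.

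In the adult integrin alpha class, *Itgae* made up 61.8%, 60.0% and 53.7% of the wild-type libraries and 0.645%, 3.64% and 3.16% of the labelled knockout libraries. *Itga1* followed in the wild-type libraries with 14.1% ± 1.96 (SD, n = 3), and was at 1.86% ± 0.202 in the labelled knockout. There, *Itga9* (18.1% ± 2.02), *Itga3* (15.2% ± 7.19), *Itga6* (13.9% ± 8.94) and *Itgav* (11.6% ± 3.03) had the highest mean shares, none of which was above 1.81% on average in the wild-type libraries. The mean of *Itga6* rests on the second and the third labelled knockout library (17.2% and 20.8%), and in the first it was at 3.81%, below *Itga5* and *Itgam*. In the beta class, *Itgb1* was at 53.6%, 47.8% and 54.8% against 55.6%, 70.6% and 72.5%, and *Itgb5* at 41.4%, 46.9% and 41.0% against 34.1%, 18.2% and 16.1%. The first labelled knockout library was the nearest to the wild-type libraries in both.

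**Figure D4:**
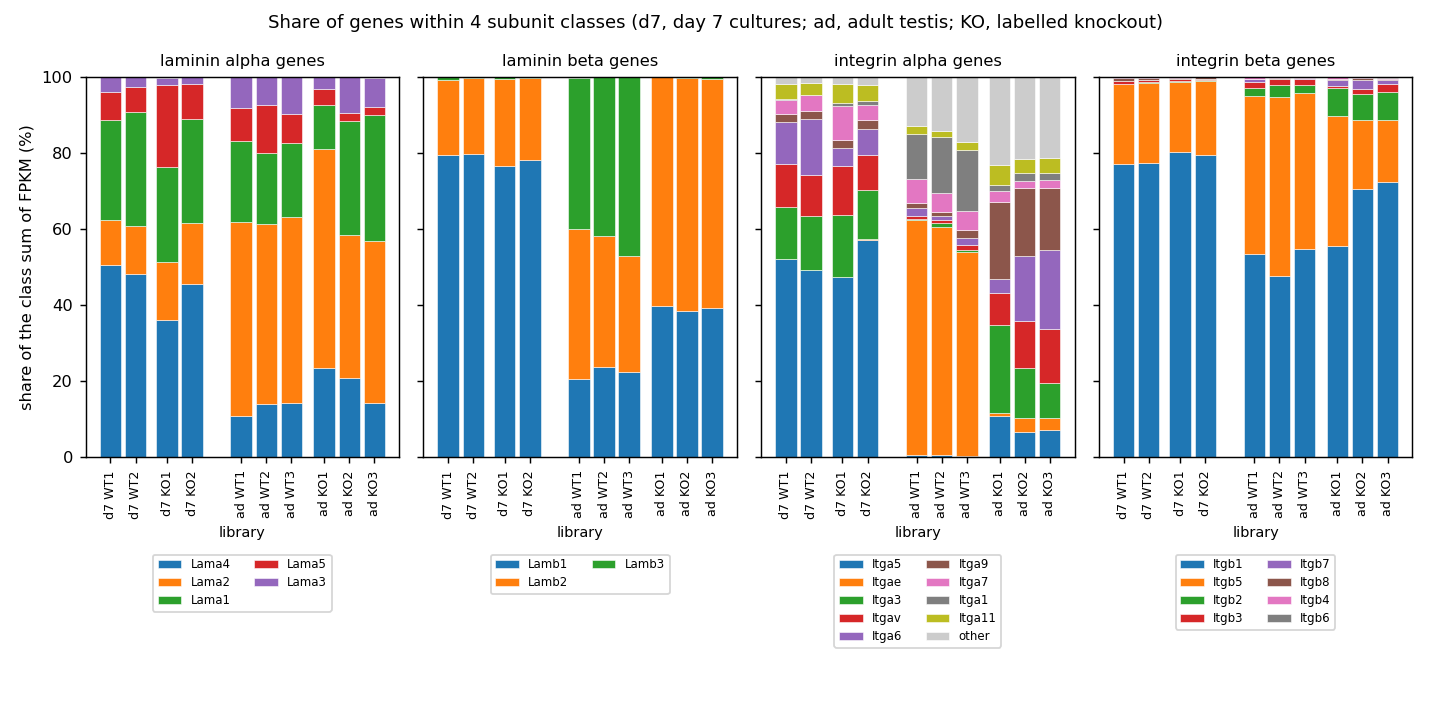
Share of each gene in the summed FPKM of its class, in percent, for each library, in 4 classes; each bar is 1 library of the day 7 cultures (d7) or adult testis (ad), and in the integrin alpha panel the 9 genes with the highest shares are drawn with the rest as other. *Lamb3* takes 39.7% to 47.0% of the adult wild-type beta chains and *Itgae* 53.7% to 61.8% of the alpha subunits, and both are nearly gone from the labelled knockout bars.

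At day 7 the classes had other leading members. *Lamb1* made up 79.7% ± 0.280 (SD, n = 2) of the beta chains in the Rnf20 Flox/Flox cultures and 77.3% ± 1.01 in the Amh-Rnf20-/- cultures, and *Itgb1* 77.4% ± 0.166 and 79.8% ± 0.575 of the beta subunits. *Itga6* was at 11.1% and 14.6% of the alpha subunits in the Rnf20 Flox/Flox cultures and at 4.70% and 6.69% in the Amh-Rnf20-/- cultures. *Lama5* was at 7.16% and 6.52% of the laminin alpha chains against 21.6% and 9.22%, and *Lama4*, the leading alpha chain, at 50.5% and 48.3% against 36.2% and 45.6%. With 2 against 2 libraries the exact permutation test cannot give a p under 0.33, so no share can pass it at day 7. By mean FPKM share *Lamb3* led the adult wild-type beta chains, at 42.8% against 34.9% for *Lamb2*. By estimated counts *Lamb2* led them instead, at 40.0% against 34.2%. Set side by side, the adult wild-type libraries held *Lamb3* and *Itgae* at large shares of their classes, and the day 7 cultures held both at under 2% of the class. The tables were made separately, and cultured cells and whole testis differ in cell types, so this was not tested.

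The direction of the adult differences was compared under 5 scalings of the libraries. All 6 members that fell stayed below 0 under each, and among the 25 called higher only *Itga11* changed sign, to −0.30, when libraries were scaled on the peritubular myoid cell list. That list was mixed in adult testis: *Actg2* was at 255.04, 335.45 and 278.04 against 1.67, 2.22 and 3.6 (−7.73, standard error 0.38). Its other 6 genes had log2 fold changes of 0.77 to 3.86. The scaling used all 7 genes, and the signs without *Actg2* were not tested. *Lama5* and *Itgax*, which had not passed, changed sign under that scaling as well, to −0.35 and −0.30. With scaling on the Sertoli cell list 20 members were called higher and 5 lower, where 24.1% of all genes were higher and 28.9% lower. With scaling on the peritubular myoid cell list the members' counts were 18 and 6, and the shares of all genes 21.4% and 50.2%. *Itgb5* had log2 fold changes of 0.27 to 2.29 over the 5 scalings, and *Itgb1* of 1.64 to 3.52.

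**Figure D5:**
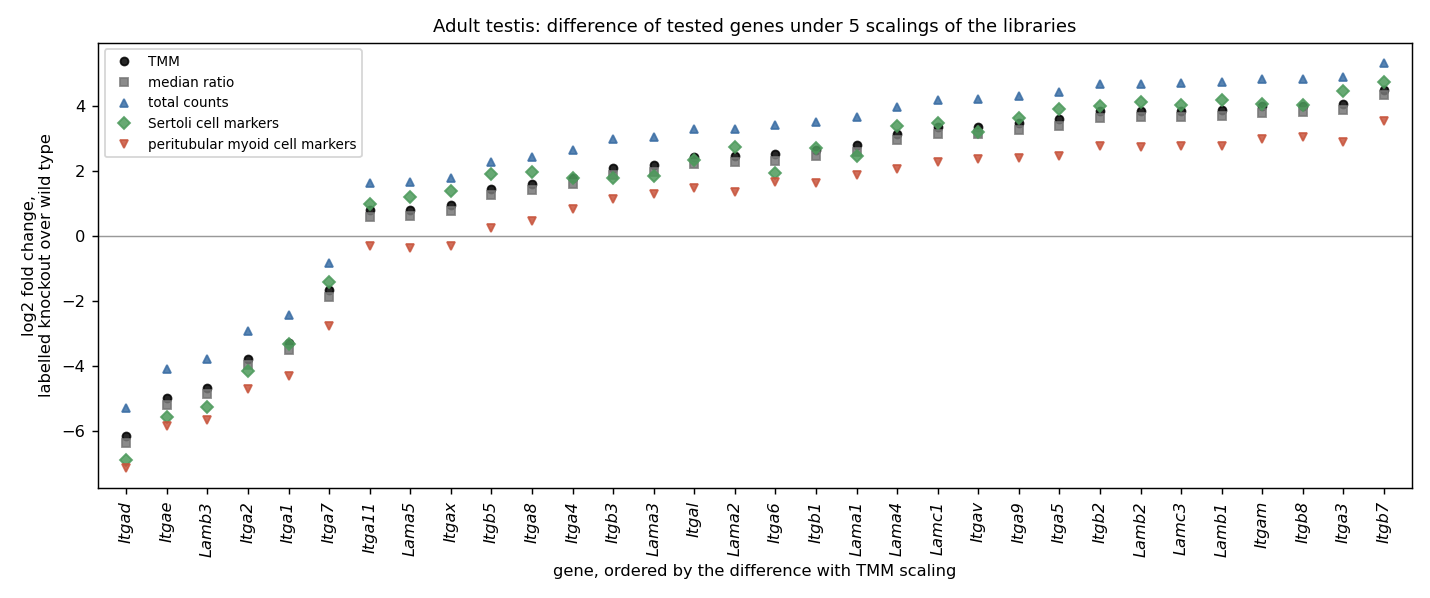
Log2 fold change, labelled knockout over wild type, of tested members in adult testis, ordered by the TMM value, under 5 scalings of the libraries: TMM (black circles), median ratio, total counts, and the mean level of the Sertoli cell or of the peritubular myoid cell marker list. Total counts give the highest values and the peritubular myoid cell list the lowest, and *Itga11*, *Lama5* and *Itgax* are the genes that cross 0.

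In adult testis the pathway lists stand beside the 40.9% of all genes tested that were called higher and the 40.6% called lower. All 13 other basement membrane genes rose, led by the type IV collagen chain *Col4a5*, at 0.28, 0.27 and 0.43 in the wild-type libraries against 11.26, 6.39 and 7.77 (3.84, standard error 0.33, adjusted p = 1.13e-04). *Col4a5* reached 0.5 FPKM in the labelled knockout libraries only, so it could enter the test only with a difference. All 8 other laminin receptors and integrin partners rose, led by *Bcam*, a receptor of laminin alpha5, at 0.98, 0.57 and 1.54 against 30.95, 11.23 and 11.58 (3.30, standard error 0.60, adjusted p = 0.00244). Of the 19 tested genes for integrin activation and adhesion adaptors, 10 rose and 5 fell. Here the leukocyte kindlin *Fermt3* rose most (4.15, standard error 0.29, adjusted p = 6.11e-05), while the talin gene *Tln2* fell from 18.57, 21.15 and 23.36 to 2.43, 2.77 and 2.49 (−3.82, standard error 0.16, adjusted p = 2.76e-05), and *Parvg* fell by as much (−3.82, standard error 0.21). *Fermt3*, at 0.25, 0.29 and 0.38 in the wild-type libraries, likewise reached 0.5 FPKM in the labelled knockout libraries only and had to differ. Of the 8 tested genes of other integrin ligands, 6 rose and 0 fell, led by *Icam1*, the ligand of the beta2 integrins, at 0.55, 0.58 and 0.58 against 12.42, 16.29 and 24.06 (4.07, standard error 0.27, adjusted p = 5.32e-05). The medians of the 4 lists were 2.30, 2.66, 1.15 and 3.20, beside 0.01 for all genes tested. Genes of these lists that reached the required level in a single group had to differ, so the counts and medians are a description.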

How the data were processed

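RNA of the day 7 Sertoli cell cultures and of adult testes was sequenced, and the study's methods describe oligo(dT) selection for the day 7 cells. The authors aligned reads with HISAT (genome build GRCm38.p6) and Bowtie2 (reference genes), and deposited FPKM, TPM and estimated counts per gene from RSEM in a separate table for each age (versions, read filters and strand handling are not given in the sources used here; for adult testis the labels name HISAT, Bowtie2 and the build only). The deposited TPM values were not used. Of all deposited estimated counts, zeros included, 11.1% to 11.6% (day 7) and 10.7% to 13.2% (adult) per library were not whole. The study's methods give 3 individuals per group for the day 7 cells, and the labels give 2 libraries per group.

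Counts were rounded and fitted in each table with edgeR 4.0.16 (quasi-likelihood test, TMM factors of 0.984 to 1.02 at day 7 and of 0.710 to 1.42 in adult testis) in R 4.3.3, over genes that reached 0.5 FPKM in 2 (day 7) or 3 (adult) libraries. P-values were adjusted over all genes tested by Benjamini and Hochberg. Standard errors were the log2 fold change over the square root of its F statistic. Group overlap was judged on TMM-scaled counts. Shares were computed from FPKM and tested by exact two-sided permutation over libraries (scipy 1.17.1), with estimated counts as the alternative. The fit was tested on simulated data. Alternatives were other scalings, DESeq2 1.42.0, limma 3.58.1 on log2(FPKM + 0.1) and log2(FPKM + 1), no filter, a mean FPKM of at least 1, a replicate block, a stricter threshold and each library left out.

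Values per library were given for members with a mean FPKM of at least 5 or past the threshold without overlap, and in adult testis for the 12 highest by mean FPKM and the 8 with the largest absolute log2 fold change. For the pathway lists, the largest changes were named. The members and all lists were chosen with earlier results of these data known. Promoter windows came from RefSeq. The values of 1 member are not reported here, and it enters the counts and medians only.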

Additional observations from a re-analysis of the deposited data

Results flagged for a closer look

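Of the 28 members tested in both tables, 3 (10.7%) had opposite directions in the day 7 cultures and in adult testis, with every library of the knockout group above, or below, every wild-type library, beside 2259 (18.3%) of the 12378 genes tested in both. *Itga1* had a log2 fold change of 2.06 at day 7 and −3.30 in adult testis, *Itga6* of −0.94 and 2.54, and *Itgb8* of −0.79 and 4.02 (3.46 to 4.95 with 1 library left out, on 3 wild-type counts). The day 7 values did not pass the test, the adult values did, and the difference between the ages was not tested because the tables were made separately from cultured cells and whole tissue.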

How the results depend on the processing

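At day 7, where 0 members passed, 3 passed with libraries scaled on the Sertoli cell markers (109 of the 12880 genes tested), 23 with libraries scaled on the peritubular myoid cell markers (11558 genes) and 4 with DESeq2 (579 genes). With 1 library left out the count was 0 to 18, with 14 (2757 genes) without the first and 18 (5136 genes) without the second Amh-Rnf20-/- culture. In adult testis the study's threshold (adjusted p under 0.001 and a log2 fold change beyond 1 in size) left 16 members higher, beside 23.0% of all genes. Under the scaling on peritubular myoid cell markers, log2 fold changes reversed at day 7 to −0.52 for *Itga11*, −0.89 for *Itga3*, −0.85 for *Itga4*, −0.94 for *Itga5*, −0.22 for *Itga7*, −0.92 for *Itga9*, −0.94 for *Itgav*, −0.80 for *Itgax*, −0.90 for *Itgb1*, −0.39 for *Itgb2*, −1.09 for *Itgb5*, −0.86 for *Lama1*, −0.40 for *Lama2*, −1.01 for *Lama4*, −1.07 for *Lamb1*, −0.86 for *Lamb2*, −1.23 for *Lamc1* and −1.08 for *Lamc3*, and in adult testis to −0.30 for *Itga11*, −0.30 for *Itgax* and −0.35 for *Lama5*. With the Sertoli cell markers they reversed at day 7 to 0.54 for *Itgb3*, 0.13 for *Itgb4*, 0.43 for *Lama3* and 0.25 for *Lamb3*. *Lamc1*, at 0.01, was at −0.03 with total-count scaling and with limma at both pseudocounts and at −0.00 without a filter. With 1 library left out at day 7, the ranges were −0.09 to 0.71 for *Itga3*, −0.23 to 0.72 for *Itgav*, −0.39 to 0.03 for *Itgb3*, −3.29 to −0.85 for *Itgad*, −0.66 to 0.13 for *Lama3*, −2.13 to 0.08 for *Lamb3* and −0.05 to 0.06 for *Lamc1*. The marker scalings move every gene of a library by the level of a short list, and other causes were not tested. Replicate numbers did not pair libraries (correlation of same-numbered deviations 0.038 at day 7 and 0.016 to 0.025 in adult testis), although every adult library correlated best with its own number, a hint from the data and not from the design. With a replicate block, 0 members passed at day 7, and 24 rose and 6 fell in adult testis, where *Itga11* was no longer called (adjusted p = 0.0551), with 12209 genes called in all against 12969. Members below the filter on low values, 8 at day 7 and 4 in adult testis, were not tested.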
